A study of Mus musculus with 25 samples.

Results

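Melanomas of the mouse line B2905, also called M4, were compared between 20 C57BL/6 mice given an antibody against CTLA-4 and 5 C57BL/6 mice given an isotype-matched IgG2b antibody, here called controls. Every tumour grew from the same implanted cell line, both antibodies were given at 10 mg/kg as 2 doses a week for 2 weeks, and the first dose followed once tumours averaged 75 mm3. The treated tumours were labelled by outcome 10 to 11 days after the last dose as 8 responders, which shrank, 6 stable tumours and 6 non-responders, which grew. Of 40 mice implanted, 30 were given the antibody against CTLA-4, 5 the control antibody and 5 no treatment. The 20 treated tumours are part of those 30, so that their split by outcome need not be that of all 30. The labels give no further genotype, age or sex, and 1 transplanted line in 1 mouse strain limits the model to that line. In the comparison the 3 outcome groups carried equal weight, so that the treated mean does not follow the 8 responders. Of 18031 genes tested, 1052 were higher and 408 lower in the treated tumours in the same way and to a like extent in all 3 outcome groups, and these are called genes moved alike.

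A gene is called here at an adjusted p under 0.05 in edgeR's quasi-likelihood test, which compares group means against the spread between tumours. A gene moved alike had to be called with the same sign in the treated mean and in each outcome group against controls, with its highest and lowest of the 3 log2 fold changes at most 1 apart. Just inside that limit stood Cd82 and Fermt3, with ranges of 0.9985 and 0.999, and just outside it Sh3bp2 and Csf1r, with 1.0009 and 1.0032. The 3 outcome comparisons share the same 5 controls, so that their similarity is not independent evidence. Levels are given as CPM, the counts of a gene in each M counts after scaling of the library, and compare 1 gene between tumours, not 1 gene with another.

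CTLA-4 is a receptor on T cells that competes with CD28 for the ligands CD80 and CD86 and so restrains T cell activation. It is abundant on regulatory T cells, and an antibody against it is used to free effector T cells, which kill through granzymes and perforin and secrete interferon gamma. Interferon gamma acts on other cells, partly through the transcription factor IRF1, where it raises MHC class I processing, guanylate-binding proteins and T cell-attracting chemokines.

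The libraries held 8.76 to 34.3 M counts, with 17.7 to 34.3 M in controls and 8.76 to 25.4 M in treated tumours. Protein-coding genes took 86.4 to 88.4% of counts in controls, 82.9 to 88.4% in non-responders and 83.8 to 89.2% in stable tumours, but 23.8 to 74.3% in 7 of the 8 responders and 87.0% in the other. The labels name both a total RNA kit and polyA RNA, so that the RNA selection behind these shares is unresolved. Mitochondrial ribosomal RNA took 0.546 to 0.966% of counts in controls and 0.783 to 1.06% in non-responders, but 1.31 to 7.28% in stable tumours and 1.15 to 14.3% in responders, so that every stable and responder library lay above every control and non-responder library. The part of the mitochondrial share in the results was not tested. The labels number the libraries group after group, so that processing order and group cannot be told apart. The 17 melanocytic genes, markers of the implanted line, summed to 14560 to 21502 CPM in controls and to 1221 to 16413 CPM in non-responders, 780.5 to 998 CPM in stable tumours and 636 to 1078 CPM in responders. Of these 17, 16 were lower in the treated mean and none moved alike, and 3 were lower in all 3 outcome groups, or 9 without non-responder 3. In whole tumour pieces a lower share of melanoma cells and less of an RNA per cell cannot be told apart, and the same holds for every cell type below.

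Treated tumours differed widely from controls. In the treated mean 9214 genes were called, 51.1% of those tested, with 4987 higher (27.7%) and 4227 lower (23.4%). Higher genes made 54.1% of the calls, but 41.4% (3964 against 5613) with no filter on low counts. Against the same controls 11723 genes (65.0%; 36.1% higher and 28.9% lower) were called in responders, 7531 (41.8%) in stable tumours and 2500 (13.9%) in non-responders, and 10612 (58.9%) differed among the outcome groups themselves, or 2957 with protein-coding share as a covariate. A smaller set was called in all 3 outcome groups and on average with 1 sign, 1742 genes higher (9.66%) and 535 lower (2.97%). By a test against a 2-fold change 1613 genes (8.95%) were called in the treated mean. The limit on the range left the 1052 higher (5.83%) and 408 lower (2.26%) genes moved alike. Without non-responder 3, 4237 genes were called in non-responders, and without control 1, control 4 or non-responder 4 the count was 1593, 1570 and 1634.

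The median log2 fold change of the 1052 higher genes was 1.41 in the treated mean, and that of the 408 lower genes was -0.84, beside 0.07 for all genes tested. By outcome the higher genes had medians of 1.45 in responders, 1.68 in stable tumours and 1.16 in non-responders, and the change was smallest in non-responders for 800 of them and largest in stable tumours for 646. The lower genes had medians of -1.04, -0.86 and -0.58 in the same order, with the largest change in responders for 297 of 408 and the smallest in non-responders for 342. A difference of at least 4-fold was reached by 238 higher and 6 lower genes, and of at least 8-fold by 47 and 2. All 20 treated tumours lay above all 5 controls for 155 of the higher genes, beside 272 of all genes tested (1.51%), and below them for 77 of the lower genes, beside 168 (0.932%). These counts and the medians above follow in part from the rule, which chose the genes by their difference from the same 5 controls. A like extent did not mean no difference among outcomes. Of the 1052, 489 also differed among the outcome groups, and of the 408, 262, beside 58.9% of all genes tested. These counts are from the fit without protein-coding share as a covariate.

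Which genes met the limit depended on single tumours. In 564 of the 1052 higher genes non-responder 6 was the highest of the 6 non-responders, in 793 non-responder 3 was the lowest, and in 570 control 5 was the highest control. Without non-responder 6, 610 of the 1052 still moved alike and 817 were still called in all 3 outcome groups, and 624 genes in all then moved alike. Without control 1, control 4 and control 5, 750, 739 and 922 of the 1052 still did. Of the 408 lower genes 166 still moved alike without control 1, 182 without control 4, 216 without non-responder 6 and 404 without non-responder 3, and the count of all lower genes moved alike ran from 167 without non-responder 4 to 1174 without non-responder 3. Over all 25 fits that left out 1 tumour, 423 of the higher and 129 of the lower genes moved alike every time.

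The antibody's target, its related receptors and their ligands rose. All 6 tested genes, the receptors Ctla4, Cd28 and Icos and the ligands Cd80, Cd86 and Icosl, were called higher in the treated mean and in each outcome group, and the 2 that moved alike were ligands, Cd86, which binds CD28 and CTLA-4, and Icosl, which binds ICOS. With single tumours left out 5 or 6 were called in each outcome group and 0 to 3 moved alike, with 0 without non-responder 4 or non-responder 6. The transcript of the target itself, Ctla4 (chromosome 1, 60887000 to 60915832, plus strand, in mm10), measured 0.967, 1.25, 0.704, 0.877 and 2.74 CPM in the 5 controls. Its lowest, median and highest values were 1.63, 4.25 and 10.4 CPM in non-responders, 9.87, 12.7 and 17.1 CPM in stable tumours and 5.58, 10.9 and 16.8 CPM in responders. Control 5 was the highest control, and non-responder 3 alone of the 20 treated tumours lay below it. The log2 fold change of Ctla4 was 2.82 ± 0.37 (SE, edgeR adjusted p = 2.2e-06), as 3.15 in responders, 3.33 in stable tumours and 1.99 in non-responders, a range of 1.34 that put it outside the limit, and it differed among outcomes (adjusted p = 0.00614). Icos, an inducible costimulatory receptor of activated T cells, rose by 3.88 ± 0.38 on the log2 scale, with all 20 treated tumours above every control, from 0.633 to 1.35 CPM to 1.98 to 17.9 CPM in non-responders, 16.8 to 26.4 CPM in stable tumours and 9.50 to 24.6 CPM in responders. Cd28, the activating counterpart of CTLA-4, rose by 2.81 ± 0.40, and Icos and Cd28 too differed among outcomes (adjusted p = 0.00836 and 0.0311).

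Foxp3 (chromosome X, 7573644 to 7595245, plus strand), the defining transcription factor of regulatory T cells, moved alike. It measured 0.267, 1.11, 0.861, 0.794 and 1.81 CPM in controls, and 0.816, 3.66 and 8.24 CPM as the lowest, median and highest of non-responders, 4.96, 6.43 and 10.5 CPM of stable tumours and 5.54, 6.89 and 10.7 CPM of responders. Only non-responder 3 lay within the range of the controls. Its log2 fold change was 2.61 ± 0.39 (adjusted p = 1.0e-05), as 2.93 in responders, 2.84 in stable tumours and 2.05 in non-responders. Of 12 regulatory T cell genes 11 rose in the treated mean and in all 3 outcome groups, and 6 moved alike, among them Tnfrsf18 (2.67 ± 0.29), the costimulatory receptor GITR, for which all 20 treated tumours exceeded the controls. The number moved alike was 4 without non-responder 5, 9 without non-responder 3 and 3 without the 7 responders of low protein-coding share. Il2ra, the alpha chain of the interleukin 2 receptor, and Ccr8, a chemokine receptor of tumour regulatory T cells, rose by 3.40 ± 0.41 and 3.26 ± 0.52 with ranges over 1. Ccr8 stood at 0.673 CPM in control 5 and at most 0.157 CPM in the other controls, and its log2 fold change was 4.21 without control 5.

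**Figure D1:**
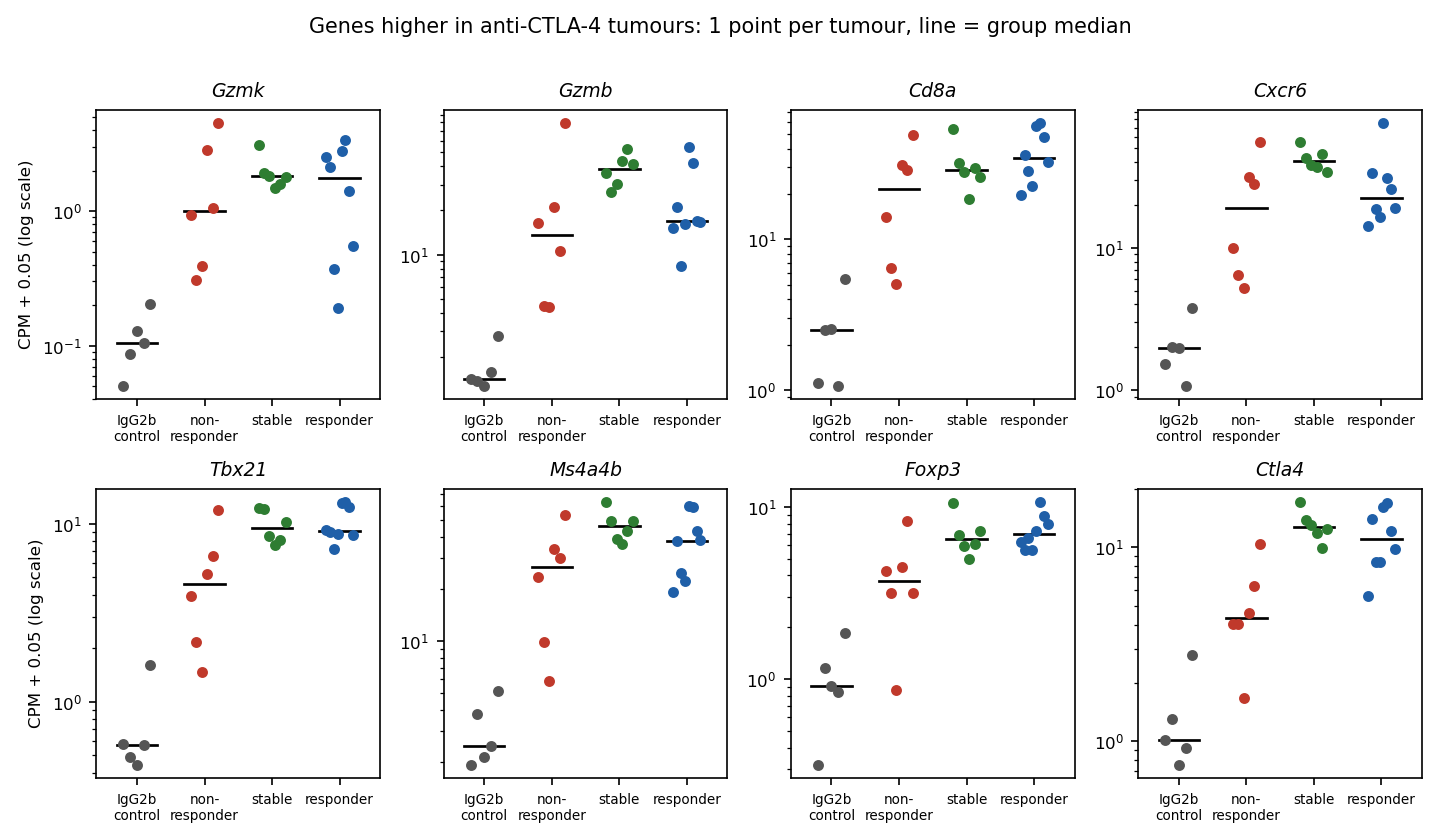
CPM plus 0.05 on a log axis for 8 genes higher in anti-CTLA-4 tumours, with 1 point per tumour in the 5 controls, 6 non-responders, 6 stable tumours and 8 responders and a line at each group's median. The control median is the lowest in every panel, stable tumours form the tightest treated group for Gzmk, and the non-responders of Cd8a run from 4.98 to 48.8 CPM beside controls of 1.01 to 5.43 CPM.

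T cell genes rose in every outcome group. All 17 genes of the T cell receptor complex and its signalling partners rose in the treated mean and in each outcome group, with list medians of 3.31 in responders, 3.66 in stable tumours and 2.61 in non-responders, and 10 moved alike, against 5.83% of genes tested. All 17 stayed called in all 3 outcome groups whichever single tumour was left out, whereas the number moved alike fell to 2 without non-responder 6 and 6 without non-responder 4 or non-responder 5. Without the 7 responders of low protein-coding share it was 3. The 17 genes summed to 36.5 to 94.99 CPM in controls, 91.4 to 443 CPM in non-responders, 369 to 536 CPM in stable tumours and 290.8 to 560.1 CPM in responders, so that non-responder 3, the lowest, overlapped the controls.

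Cd8a (chromosome 6, 71373427 to 71379173, plus strand), the alpha chain of the coreceptor of cytotoxic T cells, measured 1.07, 2.47, 2.504, 1.01 and 5.43 CPM in the 5 controls. The lowest, median and highest values were 4.98, 21.5 and 48.8 CPM in non-responders, 18.5, 28.8 and 53.9 CPM in stable tumours and 19.6, 34.5 and 59.2 CPM in responders. Non-responder 3, at 4.98 CPM, was the only treated tumour not above all controls. The log2 fold change was 3.604 ± 0.52 (adjusted p = 6.9e-06), as 3.95 in responders, 3.67 in stable tumours and 3.19 in non-responders, and no difference among outcomes was called (adjusted p = 0.283). Cd6 (3.44 ± 0.42), a T cell surface receptor, moved alike as well, while Trat1 (3.51 ± 0.49), an adaptor of the receptor complex, rose with a range of 1.47.

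Tbx21 (chromosome 11, 97098071 to 97115331, minus strand) encodes T-bet, the transcription factor of type 1 T helper and cytotoxic cells. Its levels were 0.533, 0.442, 0.391, 0.521 and 1.55 CPM in controls, 1.42, 4.54 and 11.8 CPM as the lowest, median and highest in non-responders, 7.53, 9.37 and 12.1 CPM in stable tumours and 7.14, 9.04 and 13.2 CPM in responders. The difference was 3.56 ± 0.42 on the log2 scale (adjusted p = 8.5e-07), and 19 of 20 treated tumours lay above all controls. Cxcr6 (chromosome 9, 123806475 to 123811760, plus strand), a chemokine receptor of effector and tissue-resident T cells, ran at 1.47, 1.95, 1.92, 1.01 and 3.72 CPM in controls and at 5.20 to 55.1 CPM in non-responders, 34.3 to 55.4 CPM in stable tumours and 14.3 to 75.5 CPM in responders, with no overlap. It rose by 3.94 ± 0.55 (adjusted p = 4.5e-06). Of 15 chemokines and receptors that guide T cells 14 rose in the treated mean, 9 in each outcome group, and Cxcl10, Ccl4 and Cxcr6 moved alike, or 0 genes without non-responder 6 and 5 without non-responder 3. Ms4a4b (chromosome 19, 11443553 to 11467055, plus strand), a membrane protein of T cells, also separated completely, from 1.87 to 5.07 CPM in controls to 5.84 to 53.2, 36.0 to 63.4 and 19.2 to 59.8 CPM in non-responders, stable tumours and responders, a log2 fold change of 3.57 ± 0.43. Tcrg-C2, a constant segment of the gamma chain of the T cell receptor, rose by 3.67 ± 0.53; it has near-identical copies between which reads can be split.

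Granzymes, the proteases that cytotoxic cells deliver into their targets, rose in every outcome group. Gzmk (chromosome 13, 113171608 to 113225908, minus strand) rose most of the genes moved alike with a mean of at least 1 CPM, and moved alike whichever single tumour was left out. It was near the limit of detection in controls, with 0, 0.0369, 0.0783, 0.0548 and 0.155 CPM and 8 counts in all, and had 0.259, 0.946 and 4.47 CPM as the lowest, median and highest in non-responders, 1.44, 1.76 and 3.06 CPM in stable tumours and 0.140, 1.72 and 3.30 CPM in responders. Of the treated tumours 19 lay above all controls, and responder 4 at 0.140 CPM did not. Its log2 fold change of 4.69 ± 0.82 (adjusted p = 6.2e-05) was 4.59 in responders, 4.84 in stable tumours and 4.63 in non-responders, a range of 0.25.

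Gzmb (chromosome 14, 56258838 to 56262260, minus strand), the main granzyme of cytotoxic T and NK cells, measured 1.37, 1.33, 1.21, 1.53 and 2.74 CPM in controls, 4.34, 13.5 and 79.2 CPM as the lowest, median and highest in non-responders, 26.8, 38.6 and 52.7 CPM in stable tumours and 8.27, 16.8 and 54.4 CPM in responders. All 20 treated tumours exceeded the controls, and non-responder 6 was the highest of all 25. The log2 fold change was 4.08 ± 0.63 (adjusted p = 1.6e-05), with 3.88, 4.56 and 3.80 in responders, stable tumours and non-responders. In the cytotoxic list all 16 genes rose in the treated mean and in each outcome group, and 9 moved alike. Without non-responder 6, 11 of 16 were called in all 3 outcome groups and 1 moved alike, and without the 7 responders of low protein-coding share 2 moved alike. Ctsw (3.49 ± 0.44), a cathepsin of cytotoxic lymphocytes, Gzma (2.75 ± 0.60) and Fasl (3.19 ± 0.58), the ligand of the death receptor Fas, belonged to those 9. Fasl was 1.81 CPM in control 5 against 0.184 to 0.509 CPM in the other controls, and its log2 fold change was 4.13 without that tumour.

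The neighbouring granzyme genes Gzmc, Gzmd, Gzme and Gzmf, which lie beside Gzmb on chromosome 14, rose too but did not move alike. Gzmc rose by 5.28 ± 0.80, from 0.509 to 2.22 CPM in controls to 4.34 to 105 CPM in non-responders, 29.9 to 159 CPM in stable tumours and 19.7 to 158 CPM in responders, without overlap. Gzmf, at no more than 0.0548 CPM in controls, had a median of 0.0423 CPM in non-responders, 4.63 CPM in stable tumours and 3.91 CPM in responders. Its log2 fold change of 6.77 ± 1.59 was 5.07 without non-responder 6, which at 8.33 CPM was the only non-responder above the controls, and 1 responder was at 0. The change of Gzmd was 6.10 ± 1.29, and 4.99 without non-responder 6 and 7.01 without control 4, and that of Gzme was 4.69 ± 1.22, and 3.58 without non-responder 6. Gzme stood at 5.16 CPM in non-responder 6, but at 0 to 0.364 CPM in the other non-responders and 0 to 0.117 CPM in controls. It was called in all 3 outcome groups in 9 of the 25 fits with 1 tumour left out, and Gzmf in 19. These granzymes are close paralogs, so that counts can be split between them.

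Receptors of natural killer cells, many of which cytotoxic T cells carry too, rose with them. Of 10 NK cell genes tested 8 rose, all 8 in each outcome group, and 6 moved alike, with 1 left without non-responder 6 and 2 without the 7 responders of low protein-coding share. Klre1 (chromosome 6, 129577905 to 129585827, plus strand), a killer lectin receptor, measured 0.200, 0.405, 0.313, 0.329 and 0.259 CPM in controls and 0.562 to 7.61 CPM in non-responders, 3.29 to 7.42 CPM in stable tumours and 1.955 to 7.55 CPM in responders. Every treated tumour lay above every control, with a log2 fold change of 3.59 ± 0.54 (adjusted p = 1.0e-05). The Ly49 receptor genes Klra1 (4.02 ± 0.59) and Klra7 (2.89 ± 0.41) also separated completely, from 0.0667 to 0.147 and 0.274 to 0.879 CPM in controls, and belong to a family of similar genes among which counts can be split. Klra4 (-0.07) and Klra8 (0.74) of the same family were not called.

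Inhibitory receptors and their ligands rose throughout. All 11 checkpoint genes tested rose in the treated mean and in each outcome group, also with any single tumour left out, and 7 moved alike, or 3 without non-responder 6 and 3 without the 7 responders of low protein-coding share. Cd96 (3.27 ± 0.47) and Cd160 (2.83 ± 0.52), receptors of T and NK cells, were among the 7, with 3.28, 3.72 and 2.81 for Cd96 in responders, stable tumours and non-responders. Pdcd1lg2, which encodes the PD-1 ligand PD-L2, had the largest rise at 4.57 ± 0.66, but at 4.93 in responders, 5.18 in stable tumours and 3.61 in non-responders. Its controls were 0.667 to 3.10 CPM, against 2.45, 10.5 and 53.3 CPM as the lowest, median and highest non-responder and 33.4 to 62.5 CPM in stable tumours. Tigit rose by 2.70 ± 0.45, with 3.49, 2.65 and 1.957, and differed among outcomes (adjusted p = 0.00889).

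Among 11 costimulatory genes of the TNF family 9 rose in the treated mean and in all 3 outcome groups, 1 fell (Tnfsf18, the ligand of GITR, at -2.20), and 4 moved alike, with 1 left without non-responder 6. Without control 1 or non-responder 6, 7 rose in all 3 outcome groups. Cd27 (2.83 ± 0.45), a costimulatory receptor of T cells, belonged to the 4. Tnfrsf9, which encodes 4-1BB, a marker of recently activated T cells, rose from 2.82 to 6.38 CPM to 4.00, 8.17 and 56.5 CPM as the lowest, median and highest in non-responders, beside 30.1 to 69.8 CPM in stable tumours and 18.8 to 106 CPM in responders, with log2 fold changes of 3.56, 3.40 and 1.86 in responders, stable tumours and non-responders. Cd40lg, the ligand through which helper T cells act on antigen-presenting cells, had 3 counts over all controls, all of them in control 3. Its mean over the outcome groups was 31.4 times the pooled control level, with a 95% exact Poisson interval of 10.7 to 152 that covers counting error only. Tnfsf4, the ligand of OX40, rose by 3.16 ± 0.62.

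Cytokines of activated lymphocytes and their receptors rose, although few to a like extent. Of 14 such genes tested 12 rose, 10 in every outcome group, and 3 moved alike, or 8 without non-responder 3, 7 without non-responder 2, 5 without stable tumour 3 and 1 without non-responder 6. Ifng (chromosome 10, 118441046 to 118445892, plus strand), the gene of interferon gamma, measured 0.0333, 0.221, 0.313, 0.0822 and 0.517 CPM in controls, 0.475, 2.25 and 8.26 CPM as the lowest, median and highest in non-responders, 4.92, 5.71 and 8.92 CPM in stable tumours and 1.56, 3.50 and 6.52 CPM in responders. Only non-responder 2 overlapped the controls. The log2 fold change was 4.14 ± 0.64 (adjusted p = 1.4e-05), as 4.00 in responders, 4.76 in stable tumours and 3.66 in non-responders, whose range of 1.11 lay just over the limit, and no difference among outcomes was called (adjusted p = 0.144). Tnf (3.18 ± 0.46), which encodes tumour necrosis factor, moved alike, and all 20 treated tumours, at 2.94 CPM or more, lay above the controls at 0.822 to 2.48 CPM. Il21, a cytokine of helper T cells, had 2 counts over the controls and a ratio of 40.8 (95% exact Poisson interval 11.3 to 337).

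Genes of interferon gamma signalling and genes that interferon gamma is known to induce were higher. All 12 signalling genes rose in the treated mean, 8 in each outcome group, and 5 moved alike, among them Irf1 and Irf8. Their number was 1 without non-responder 6, 9 without non-responder 2 and 10 without non-responder 3. Irf1 (chromosome 11, 53770014 to 53778374, plus strand), a transcription factor made early in the response, measured 33.7, 43.6, 40.0, 36.4 and 61.8 CPM in controls, 59.1, 137 and 344 CPM as the lowest, median and highest in non-responders, 249.8, 275 and 369 CPM in stable tumours and 156, 184 and 281 CPM in responders. Its log2 fold change was 2.28 ± 0.29 (adjusted p = 1.6e-06), with 2.23, 2.74 and 1.86 in responders, stable tumours and non-responders, and it differed among outcomes (adjusted p = 0.0287). Non-responder 2 alone was not above all controls. Socs1, an inhibitor of the pathway, rose by 2.79 ± 0.32 with no overlap between the treated tumours and controls, and Ciita, the master regulator of MHC class II genes, by 2.92 ± 0.34.

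Interferon-induced GTPases, guanylate-binding proteins and immunity-related GTPases that act against pathogens inside cells, rose without exception in the list. All 16 rose in the treated mean and in each outcome group, with any single tumour left out as well, and 9 moved alike, or 5 without non-responder 6. Gbp10 rose by 4.16 ± 0.57, Gbp4 by 4.03 ± 0.48 and Gbp8 by 3.63 ± 0.41, and for each all 20 treated tumours exceeded all controls. Gbp4 ran at 9.07 to 36.9 CPM in controls and at 49.0 to 512 CPM in non-responders, 394 to 528 CPM in stable tumours and 228 to 775 CPM in responders. Gbp10 lay just outside the limit, with 3.86 in responders, 4.82 in stable tumours and 3.81 in non-responders. These gene clusters hold close paralogs, and counts may be split between copies.

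The promoters of this family are shown since they share a motif that few promoters hold. In the 250 bases before the start of RefSeq promoters (build GRCm38.p6), GAAA followed by any 2 bases and GAAA again, the core of the interferon-stimulated response element, was searched on both strands. It was found in 9 of 10 promoters of the 9 GTPase genes matched, against 978 of 32851 promoters of the same length (2.98%), 57 of 1030 promoters of higher genes moved alike (5.53%) and 6 of 413 of lower genes moved alike (1.45%). The other motif searched, TTCNNNGAA, the gamma-activated site, was found in 6 of those 10 promoters, 7.02% of all promoters, 6.60% of those of higher and 6.54% of those of lower genes moved alike. The 2 motifs overlapped in 18 promoters of the whole set and in none of the 10. A match describes letters and is not a binding site, and 779 of the 1052 higher and 315 of the 408 lower genes had a promoter in the table. Windows of 30 bases are given 5′ to 3′ on the gene's strand for 6 GTPase genes moved alike, with 1 match to the motif, or its reverse complement, in capitals:
Irgm1, chr11:48871425-48871454, minus strand: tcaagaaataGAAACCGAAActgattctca
Irgm2, chr11:58214903-58214932, plus strand: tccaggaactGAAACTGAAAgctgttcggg
Igtp, chr11:58199512-58199541, plus strand: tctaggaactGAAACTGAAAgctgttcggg
Tgtp2, chr11:49064263-49064292, minus strand: tccaggaatcGAAACCGAAAcctactctga
Gbp3, chr3:142559989-142560018, plus strand: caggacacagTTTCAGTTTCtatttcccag
Gbp7, chr3:142530273-142530302, plus strand: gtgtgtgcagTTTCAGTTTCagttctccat
In these windows the first base of the match in capitals lay 24 bases before the start in Irgm1, 64 in Irgm2, 34 in Igtp, 70 in Tgtp2, 45 in Gbp3 and 53 in Gbp7. Irgm1 and Gbp3 each held another match that overlaps it, 30 and 39 bases before the start, which stands partly in lower case. In the MHC class I list 1 of 15 promoters held the repeated GAAA motif, as did 2 of 14 in the cytotoxic list, 1 of 11 in the interferon gamma signalling list and none of 13 in the T cell receptor list.

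Genes of MHC class I presentation, which show peptides to CD8 T cells, rose for the most part. Of 15 tested 12 rose, 10 of them in each outcome group, and these 10 moved alike. They were the heavy chains H2-K1 and H2-D1, the peptide transporter subunits Tap1 and Tap2, the loading factors Tapbp and Tapbpl, the immunoproteasome subunits Psmb8, Psmb9 and Psmb10 and the activator Psme2. Their number was 3 without non-responder 6. Tap1 (chromosome 17, 34187553 to 34197225, plus strand) measured 58.6, 79.1, 68.7, 65.8 and 120.1 CPM in controls, 102, 239 and 418 CPM as the lowest, median and highest in non-responders, 304, 321 and 446 CPM in stable tumours and 236, 261 and 326 CPM in responders. The groups overlapped in 2 treated tumours, which lay below control 5. Its log2 fold change was 1.81 ± 0.24 (adjusted p = 2.9e-06), as 1.77 in responders, 2.12 in stable tumours and 1.54 in non-responders, and no difference among outcomes was called (adjusted p = 0.106). Tap1 and Psmb9 (1.76 ± 0.27) moved alike whichever tumour was left out. Calr (-0.43) and Pdia3 (0.00), chaperones of the endoplasmic reticulum, were not called in the treated mean.

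MHC class II genes, expressed by antigen-presenting cells, rose in each outcome group, but few moved alike. All 12 rose in the treated mean and in each outcome group, with list medians of 2.62 in responders, 3.43 in stable tumours and 2.24 in non-responders, and H2-DMb2 alone moved alike. That number ran from 0, without non-responder 6 among others, to 7 without non-responder 2 or non-responder 3. H2-Ab1, a beta chain of class II, was 98.8 to 315 CPM in controls, 263 to 2148 CPM in non-responders, 1729 to 3201 CPM in stable tumours and 729.6 to 2452 CPM in responders, and differed among outcomes (adjusted p = 0.0162). Of the antiviral genes known as type I interferon targets, 8 of 20 rose in the treated mean, beside 27.7% of all genes tested. In responders 7 were called higher and 4 lower, beside 36.1% and 28.9% of all genes tested. In stable tumours 8 were called higher, beside 22.2% of all genes, and in non-responders 12, beside 10.6%. The list median was 0.07 in responders, 0.54 in stable tumours and 0.80 in non-responders. Stat2 (1.33 ± 0.23, as 1.51, 1.37 and 1.12 in responders, stable tumours and non-responders) and Oasl2 (1.19 ± 0.24, as 1.09, 1.17 and 1.32) moved alike whichever tumour was left out. In all 5 of this list moved alike, 2 without control 1, control 3 or control 4, and 1 without the 7 responders of low protein-coding share. Rsad2 (-0.49), Oasl1 (-0.30) and Ifit1 (-0.11), other interferon-induced antiviral genes, were not called, a choice of names made after their values were seen.

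**Figure D2:**
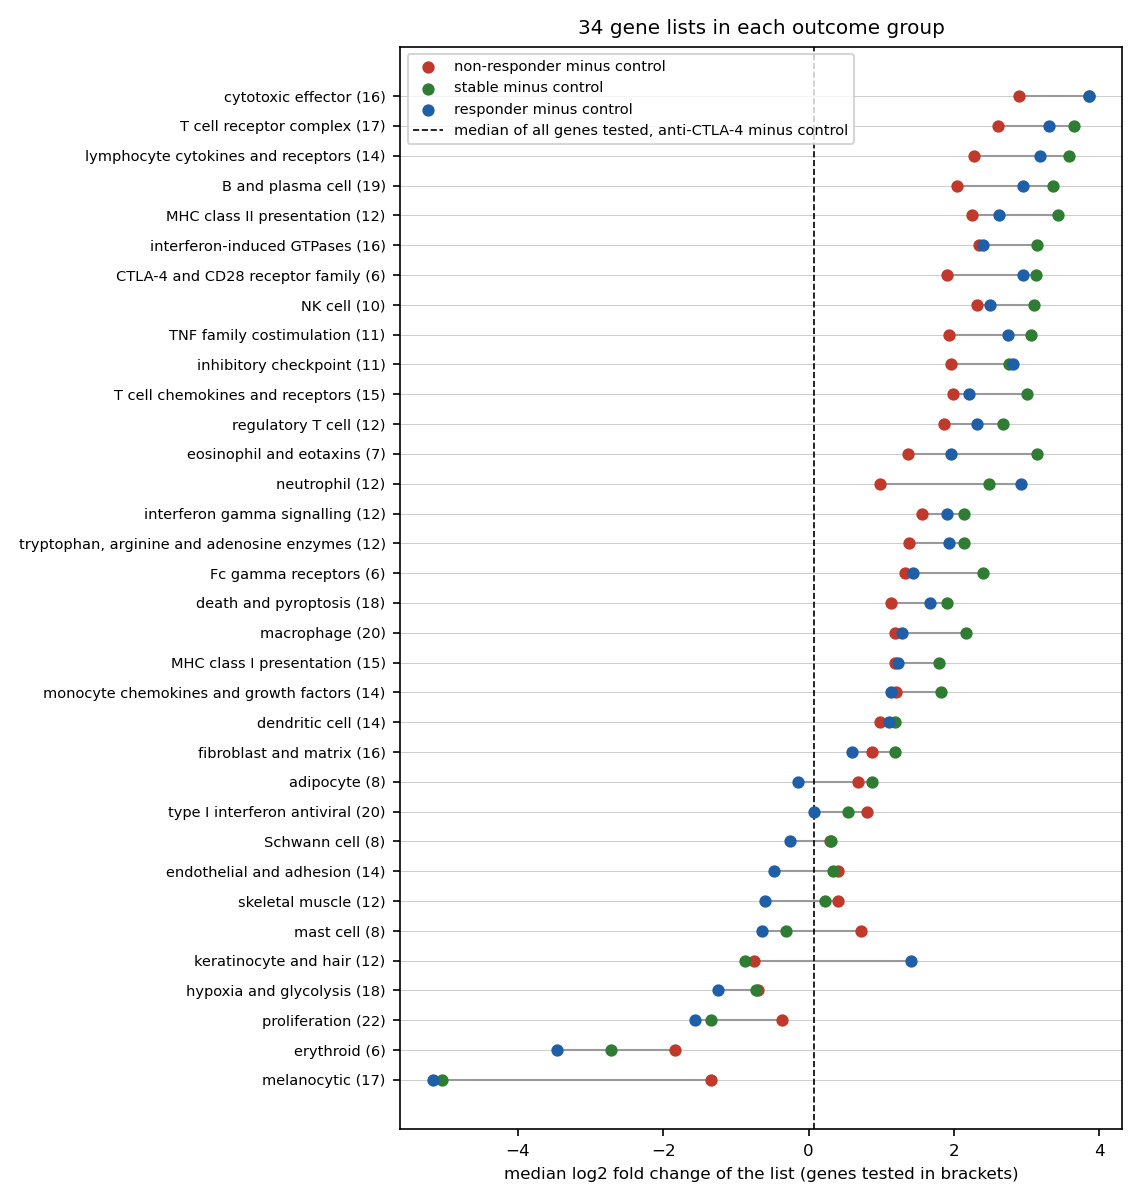
Median log2 fold change of 34 gene lists against the 5 controls, with 1 point each for non-responders, stable tumours and responders, the number of tested genes in brackets and a dashed line at the median of all genes (0.07). The T cell receptor list lies at 2.61 to 3.66 in the 3 outcome groups and the type I interferon list at 0.07 in responders to 0.80 in non-responders, while the melanocytic list runs from -5.17 in responders to -1.35 in non-responders.

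Myeloid genes rose for the most part in the treated mean. Beside 58.9% of all genes tested, 6 of 6 Fc gamma receptor and 3 of 12 neutrophil genes differed among outcomes. For eosinophil, dendritic cell and monocyte chemokine genes it was 4 of 7, 7 of 14 and 8 of 14. Of 20 macrophage genes 15 rose in the treated mean, 11 in each outcome group, and 19 differed among outcomes. The 4 that moved alike were C1qa, C1qb and C1qc, which encode complement C1q, and Aif1, and the number ran from 0 without non-responder 6 or responder 5, and 2 without control 4 or non-responder 4, to 7 without stable tumour 3. Without control 4, 6 of 20 were called in all 3 outcome groups, and without non-responder 6, 7. The 20 genes summed to 1421 to 2228 CPM in controls, 1906 to 11736 CPM in non-responders, 9014 to 13790 CPM in stable tumours and 3619 to 14669 CPM in responders. Nos2, the inducible nitric oxide synthase, rose by 5.53 ± 0.77 with all 20 treated tumours above the controls, but at 6.34 in responders, 6.34 in stable tumours and 3.91 in non-responders. Csf2 (2.70 ± 0.59, 3.32 without control 1), the myeloid growth factor GM-CSF, moved alike, and Gpr84 (3.76 ± 0.60), a receptor of activated myeloid cells, was among the 12 leading genes, at 0.0333 to 0.259 CPM in controls and 0.259 to 5.35 CPM in non-responders, 2.29 to 4.12 CPM in stable tumours and 1.12 to 4.49 CPM in responders.

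Ido1, the tryptophan-degrading enzyme that interferon gamma induces, was nearly absent from controls, with 1 count and 4 tumours at 0. Its mean over the outcome groups was 54.2 times the pooled control level (95% exact Poisson interval 9.74 to 2143). It measured 0 to 1.07 CPM in non-responders, 0.235 to 0.836 CPM in stable tumours and 0.135 to 0.633 CPM in responders, and it moved alike. Non-responder 2 and non-responder 3 were at 0 CPM, and non-responder 6 was the highest. Ido1 did not move alike without non-responder 6, stable tumour 1 or stable tumour 5. Acod1, which makes itaconate in activated macrophages, rose by 5.43 ± 0.73 and Il1b, the gene of interleukin 1 beta, by 4.44 ± 0.57, both with all 20 treated tumours above the controls and with ranges of 1.56 and 2.14. In the list of death and pyroptosis genes 14 of 18 rose and 1 fell in the treated mean, 10 rose in each outcome group, and 6 moved alike. These were Fasl, Tnf, Tnfsf10, Gsdmd, Zbp1 and Ripk3, and 3 moved alike without non-responder 6.

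Of the dendritic cell genes 8 of 14 rose, 2 fell and 3 moved alike. The 3 were Flt3 (1.88 ± 0.31), a growth factor receptor of dendritic cells, Zbtb46 (1.32) and Ccr9 (2.45 ± 0.49). Clec9a, a receptor of cross-presenting dendritic cells, rose by 3.29 ± 0.41, with a range of 1.39. B and plasma cell genes rose in 19 of 19 cases in the treated mean but in 6 of 19 in all 3 outcome groups, 2 without control 1 or control 4 and 3 without control 2 or non-responder 4, and Cd79b alone moved alike. Ighg1, an immunoglobulin heavy chain constant gene, rose by 7.06 ± 1.68, and by 8.66 without control 5, at 0 to 2.95 CPM in controls and 0.223 to 502 CPM in responders. Of 12 neutrophil genes 8 rose in the treated mean and of 7 eosinophil genes 5, and none of either list moved alike with all tumours in the fit.

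**Figure D3:**
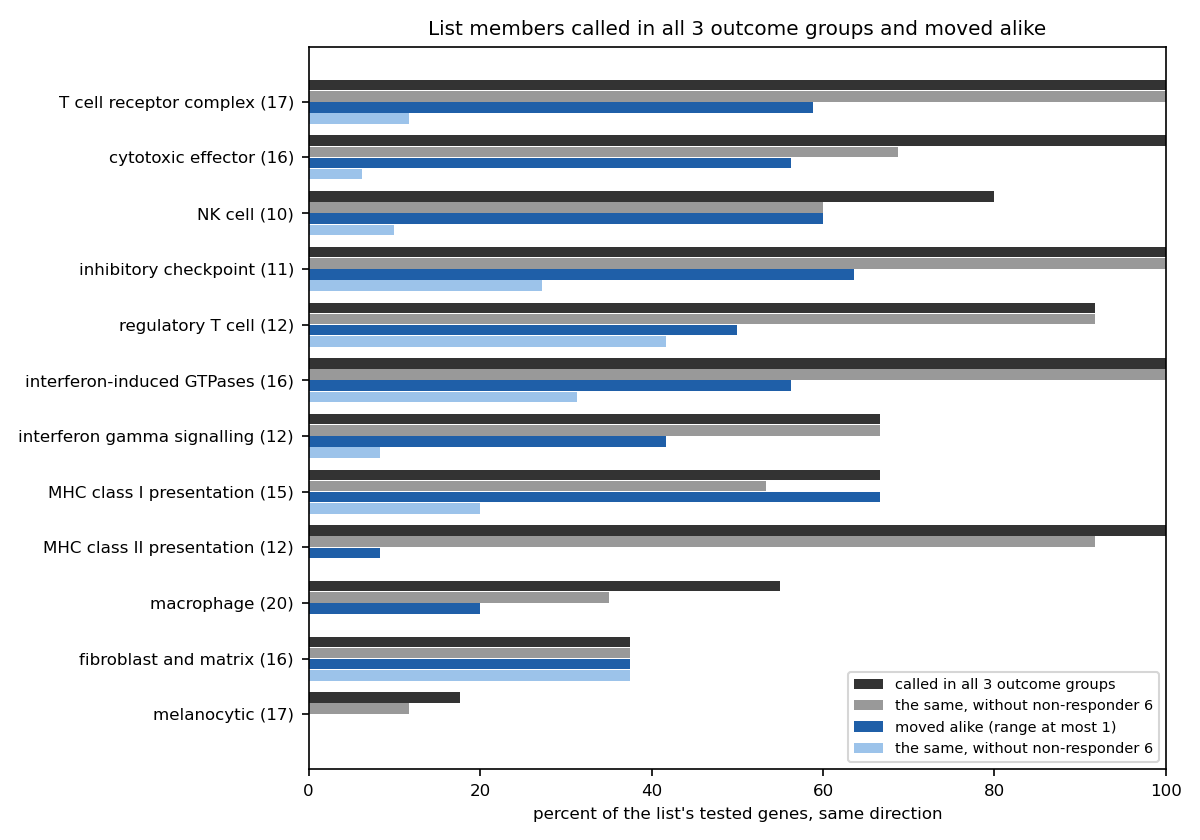
Percent of the tested genes of 12 lists, in brackets, that were called with 1 sign in all 3 outcome groups (dark) and that moved alike (blue), each with all tumours and without non-responder 6 (paler bars). The T cell receptor list stays at 17 of 17 called in all 3 groups while its members moved alike fall from 10 to 2, and the fibroblast list has 6 of 16 under both.

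Collagen and fibroblast genes rose as well. Of 16 fibroblast and matrix genes 10 rose in the treated mean and 6 moved alike, Col1a1, Col1a2, Col6a1, Col6a3, Pdgfra and Pdgfrb, with 6 also without non-responder 6 and 3 without control 1. Col6a1 (chromosome 10, 76708792 to 76726168, minus strand), a chain of collagen VI, measured 349.9, 463, 333, 308 and 447 CPM in controls, 515, 997 and 1267 CPM as the lowest, median and highest in non-responders, 1148, 1379 and 1576 CPM in stable tumours and 808, 926 and 1486 CPM in responders. All 20 treated tumours lay above the controls, with a log2 fold change of 1.51 ± 0.19 (adjusted p = 1.8e-06) and 1.42, 1.84 and 1.26 in responders, stable tumours and non-responders. Col1a2, a chain of collagen I, rose by 1.21 ± 0.23 as 1.09, 1.41 and 1.13. In the endothelial list 5 of 14 rose and 4 fell, shares near those of all genes tested (27.7% and 23.4%), and the adhesion molecules Icam1 (2.64 ± 0.35) and Vcam1 (1.39 ± 0.31), both inducible by cytokines on other cells too, moved alike, and neither did without non-responder 6. The count of risers was 3 without control 1, control 4 or control 5. Egr2 (1.63 ± 0.26), a transcription factor of Schwann cells, activated T cells and macrophages, moved alike in every fit, at 8.05 to 12.6 CPM in controls and 13.4 CPM or more in all treated tumours. Of the 8 Schwann cell genes it was listed with, 2 rose and 1, Cnp (-0.86), fell in the treated mean. In responders 3 of the 8 were higher and 3 lower, beside 36.1% and 28.9% of all genes tested.

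Markers of tissue around the tumour and of blood were read as well. None of 12 skeletal muscle genes and none of 12 keratinocyte and hair genes was called in the treated mean by edgeR or DESeq2, with 0 of each at an unadjusted p under 0.05 in edgeR, and their summed CPM overlapped between groups, at 75.1 to 1502 and 17.8 to 1258 in controls. Of 8 adipocyte genes 1 (Pparg) and of 8 mast cell genes 1 (Cma1) were called lower, beside 23.4% of all genes tested. The call of Pparg was lost in 1 alternative and that of Cma1 in 6. The mast cell list had medians of -0.65 in responders, -0.31 in stable tumours and 0.72 in non-responders. In responders 3 of its 8 genes were called lower, beside 28.9% of all genes tested, and 5 differed among outcomes, beside 58.9%. All 6 erythroid genes were lower, with 50.03 to 461 CPM in controls and 9.77 to 116 CPM in treated tumours, and 5 were called in all 3 outcome groups, or 2 without control 3 and 0 without control 4. The part of blood or adjoining tissue in the results above was not tested.

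Xlr4c (chromosome X, 73233688 to 73243130, minus strand), a gene of the X-linked lymphocyte-regulated family, was the remaining gene of the 12 with the largest rise. It had 11 counts over the controls, at 0.167, 0.111, 0, 0.0274 and 0.103 CPM, and 0.0859, 0.993 and 1.75 CPM as the lowest, median and highest in non-responders, 1.06, 1.61 and 1.82 CPM in stable tumours and 0.446, 1.36 and 4.16 CPM in responders. Its log2 fold change was 4.02 ± 0.66, as 4.43, 4.16 and 3.46 in responders, stable tumours and non-responders. It moved alike in 17 of the 25 fits with 1 tumour left out, and its near-identical family members may share its counts.

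**Figure D4:**
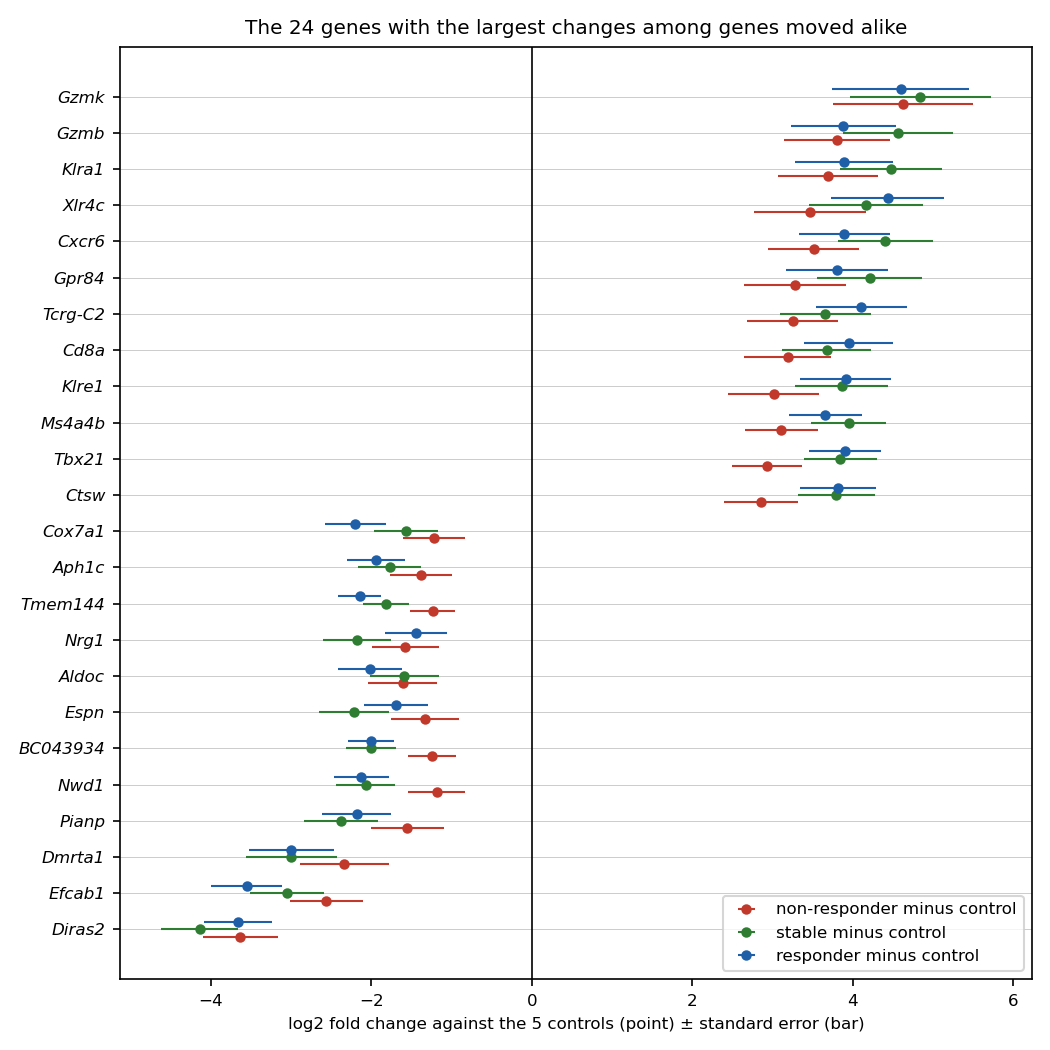
Log2 fold change against the 5 controls for the 12 highest and 12 lowest named genes moved alike, with 1 point per outcome group and bars of ± 1 standard error. The 3 points of a gene lie within 1 unit by the rule that chose it, and Gzmk and Aldoc have ranges of 0.25 and 0.43.

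None of the genes that fell alike belonged to an immune list. Diras2 (chromosome 13, 52504380 to 52531279, minus strand), a small GTPase of the Ras family known from brain, fell most of the genes moved alike with a mean of at least 1 CPM. It measured 30.4, 6.26, 33.6, 62.9 and 38.8 CPM in controls, 1.60, 1.86 and 7.39 CPM as the lowest, median and highest in non-responders, 1.34, 1.89 and 2.92 CPM in stable tumours and 1.34, 2.27 and 5.10 CPM in responders. Only non-responder 3, at 7.39 CPM, was not below all controls, of which control 2 was the lowest. The log2 fold change was -3.81 ± 0.31 (adjusted p = 7.9e-08), as -3.65 in responders, -4.13 in stable tumours and -3.63 in non-responders, without a called difference among outcomes (adjusted p = 0.488), and it moved alike whichever tumour was left out. The melanocytic gene Tyr, for comparison, had log2 fold changes of -6.87 in responders, -7.62 in stable tumours and -1.92 in non-responders, the last not called (adjusted p = 0.179).

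Efcab1 (chromosome 16, 14906606 to 14981371, plus strand), an EF-hand calcium-binding protein, was 6.20, 1.66, 3.99, 2.88 and 2.79 CPM in controls and 0.191, 0.542 and 1.05 CPM as the lowest, median and highest in non-responders, 0.177, 0.413 and 0.682 CPM in stable tumours and 0, 0.265 and 0.651 CPM in responders, all below every control. It fell by 3.05 ± 0.32 on the log2 scale. Dmrta1 (chromosome 4, 89679436 to 89694772, plus strand), a transcription factor of the doublesex family, was also lower in all 20 treated tumours, from 3.52 to 7.33 CPM in controls to 0.458 to 2.43, 0.223 to 1.24 and 0.100 to 2.01 CPM in non-responders, stable tumours and responders, a change of -2.77 ± 0.39. Pianp, a ligand of the receptor PILR-alpha, fell by 2.03 ± 0.33 and Nwd1 by 1.79 ± 0.27. Pianp was called in all 3 outcome groups in 22 of the 25 fits with 1 tumour left out and Nwd1 in 21.

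Aldoc (chromosome 11, 78322968 to 78327781, plus strand), the glycolytic enzyme aldolase C, measured 54.6, 67.5, 59.6, 72.4 and 61.8 CPM in controls, 4.16, 23.8 and 36.7 CPM as the lowest, median and highest in non-responders, 16.3, 21.4 and 26.7 CPM in stable tumours and 4.79, 13.3 and 36.3 CPM in responders. All 20 treated tumours lay below them. The log2 fold change was -1.74 ± 0.32 (adjusted p = 1.0e-04), as -2.02 in responders, -1.59 in stable tumours and -1.61 in non-responders, and it too moved alike whichever tumour was left out. In the list of hypoxia and glycolysis genes 10 of 18 fell and 1 rose in the treated mean. Pfkl (-1.23), a phosphofructokinase, alone moved alike, or 8 genes without non-responder 3 and 0 without the 7 responders of low protein-coding share. Car9, a hypoxia-induced carbonic anhydrase, fell by 3.43 ± 0.39, at -4.38 in responders, -3.81 in stable tumours and -2.08 in non-responders, and Gapdh by 1.27 ± 0.26, with its change in non-responders not called (adjusted p = 0.0845).

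**Figure D5:**
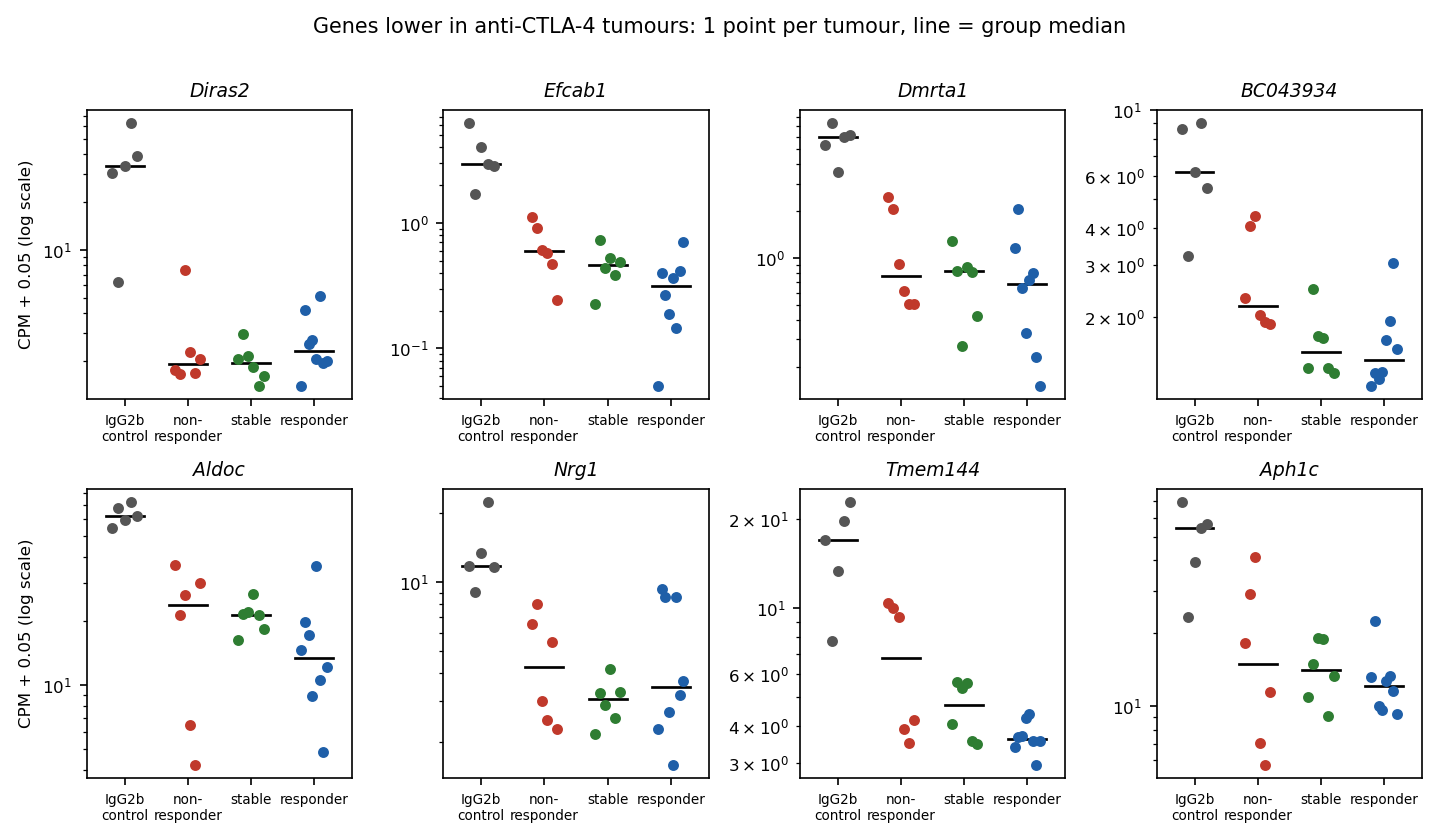
CPM plus 0.05 on a log axis for 8 genes lower in anti-CTLA-4 tumours, with 1 point per tumour and a line at each group's median. The control median is the highest in every panel, and for Efcab1, Dmrta1 and Aldoc no treated tumour reaches the lowest control.

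Nrg1 (chromosome 8, 31814551 to 32884029, minus strand), which encodes neuregulin 1, a ligand of ERBB receptors, fell from 11.8, 9.03, 13.4, 22.4 and 11.5 CPM in controls to 2.22, 4.19 and 7.99 CPM as the lowest, median and highest in non-responders, 2.12, 3.03 and 4.13 CPM in stable tumours and 1.53, 3.41 and 9.28 CPM in responders. The change was -1.73 ± 0.31 on the log2 scale (adjusted p = 7.7e-05), 19 of 20 treated tumours lay below all controls, and the value was -2.34 without the 7 responders of low protein-coding share. BC043934 (-1.75 ± 0.23) moved alike in every fit and differed among outcomes (adjusted p = 0.0318), and Tmem144 (-1.73 ± 0.21, adjusted p = 0.0138), a transmembrane protein, differed too. Aph1c (-1.69 ± 0.29), a subunit of gamma-secretase, was 69.8, 23.4, 39.5, 54.3 and 56.6 CPM in controls and 5.66 to 41.3 CPM in non-responders, 9.05 to 19.1 CPM in stable tumours and 9.21 to 22.5 CPM in responders. Espn (-1.74 ± 0.32), an actin-bundling protein, and Cox7a1 (-1.66 ± 0.30), a subunit of cytochrome c oxidase, were the least stable of the 12, called in all 3 outcome groups in 17 and 16 of the 25 fits with 1 tumour left out.

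Cell cycle genes, in contrast, did not meet the rule. Of 22 proliferation genes 21 fell in the treated mean, 21 in responders, 21 in stable tumours and none in non-responders by edgeR (2 at an unadjusted p under 0.05) or DESeq2, where the list median was -0.37 against -1.56 and -1.34, and 21 differed among outcomes. Ccnb1, a mitotic cyclin, was 62.6 to 103 CPM in controls, 35.8 to 103 CPM in non-responders, 9.09 to 28.0 CPM in stable tumours and 9.76 to 21.9 CPM in responders. Without non-responder 3, 6 of the 22 fell in all 3 outcome groups and 2 moved alike.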

How the data were processed

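RNA from 25 tumours was sequenced, total or polyA RNA being unresolved per the labels, and per the submitters' processing notes the reads were handled with bcl2fastq 2.17, Trimmomatic, STAR 2.5.1 and RSEM 1.2.22 on mm10. The authors deposited estimated counts for 55450 genes, of which 5.64% of values were not whole, so that they were rounded, and a table of RPKM values, used for 1 alternative as log2(RPKM + 1). All 55450 gene IDs matched the GENCODE annotation of that build. Library totals of 8.76 to 34.3 M counts and the number of tumours set the precision.

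edgeR 4.0.16 (R 4.3.3) was fitted to the 4 groups with TMM scaling, its default low-count filter and robust quasi-likelihood tests, with Benjamini-Hochberg adjustment over 18031 genes. Contrasts were the mean over the 3 outcome groups at equal weight, each outcome group alone (all against controls) and any difference among outcomes. No labels say that tumours were processed in separate batches. Tumours were from separate mice, and p-values measure the spread between these tumours. The standard errors given after ± were derived as the size of the log2 fold change over the square root of edgeR's F statistic. On simulated data of 17805 genes, 70% of genes changed 2-fold and 90% of those changed 4-fold were called, with 7 of 167 calls false. Of the same genes 50% and 79% met the rule for genes moved alike. The simulation changed 100 genes at each fold, alike in the 3 outcome groups, and no others. The real data hold far more changed genes and differences among outcomes, so that these figures do not carry over to them. DESeq2 1.42.0, limma 3.58.1, other scaling and filters, a covariate and leaving out tumours were alternatives.

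Members and lists were chosen with earlier results of these data known. Genes named were the 12 highest and the 12 lowest moved alike with a mean of at least 1 CPM, predicted genes, receptor segments, ribosomal genes, small RNAs and pseudogenes left out, up to 4 called genes with the largest change of each of 34 lists, and Ctla4, Cd28, Icos and Foxp3. Other genes, among them list members that moved alike or were not called, were named after their values were seen. Promoters came from RefSeq, build GRCm38.p6. Replicate numbers follow accession order. Some genes of the lists are counted but not reported here by name.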

Additional observations from a re-analysis of the deposited data

Results flagged for a closer look

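Among the 12 highest and 12 lowest genes moved alike and Ctla4, Cd28, Icos and Foxp3, 112 groups of tumours were checked for a tumour far from the others of its group, which chance gives in about 1 group in 20. Control 5 stood above the other controls for Gzmb (2.74 CPM), Ctla4 (2.74 CPM), Tbx21 (1.55 CPM) and Ctsw (4.60 CPM). Non-responder 6 stood above the other non-responders for Gzmb (79.2 CPM), Klra1 (4.32 CPM), Gpr84 (5.35 CPM) and Klre1 (7.61 CPM), non-responder 3 for Diras2 (7.39 CPM) and non-responder 2 for Nwd1 (4.41 CPM). Stable tumour 1 was high for Gzmk (3.06 CPM) and Klre1 (7.42 CPM), and stable tumour 2 for BC043934 (2.44 CPM). Responder 5 was high for Klra1 (3.91 CPM) and Cxcr6 (75.5 CPM), responder 7 for BC043934 (2.98 CPM), responder 3 for Espn (19.0 CPM) and responder 2 for Aph1c (22.5 CPM). Control 2 was high for Nwd1 (8.18 CPM). Responder 1 was low for Cox7a1, listed at 0 CPM.

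The 3 outcome groups differed in edgeR's test for Ctla4 (adjusted p = 0.00614), Icos (adjusted p = 0.00836), Tmem144 (adjusted p = 0.0138), Nwd1 (adjusted p = 0.0287), Cd28 (adjusted p = 0.0311), BC043934 (adjusted p = 0.0318) and Tbx21 (adjusted p = 0.0462).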

How the results depend on the processing

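The count of lower genes moved alike, 408, was 758 with DESeq2, 712 with limma on log2(RPKM + 1), 1116 without the responders and 263 without the 7 responders of low protein-coding share, an alternative chosen after seeing the data whose lone responder is assumed to vary like the other groups. Without the responders the rule covers the stable tumours and non-responders only. It then asks for fewer calls and a range over fewer values, so that 1116 cannot be compared with 408. With a range of at most 0.5, 374 higher and 209 lower genes moved alike, and with no limit 1742 were higher, by the construction of these limits. With protein-coding share as a covariate 2957 genes differed among outcomes, and the cause was not tested. At least 2-fold, by glmTreat, 1613 genes were called. With 1 tumour left out the counts ran from 7697 to 10146 in the treated mean, 10978 to 12223 in responders, 6657 to 8116 in stable tumours, 1570 to 4237 in non-responders and 9587 to 11925 among outcomes, and genes moved alike from 624 to 1573 higher and 167 to 1174 lower. The lower count was 170 without control 1, 182 without control 4, 174 without non-responder 5 and 219 without non-responder 6. Of 4813 alternatives for the 139 named genes 4785 kept direction and call in the treated mean, 28 lost that call (Oas2, Sele, Pparg, Alas2, Slc4a1 and Cma1) and none reversed. Whether a gene moved alike was less stable. It was lost in 14 alternatives for Cox7a1, 11 for Nwd1 and 10 each for Xlr4c, Ctsw and Espn, and in 0 for Diras2 and BC043934. No paired analysis was possible because replicate numbers follow accession order and each tumour came from its own mouse. Low control counts limit the precision of Gzmk, Xlr4c, Cd40lg, Il21 and Ido1.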
